A study of Homo sapiens with 6 samples.

Results

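The genes described here encode the sensors and chaperones of the endoplasmic reticulum (ER) that mark ER stress: HSPA5, HSP90B1, CALR, CANX, PDIA4, DNAJB9, HERPUD1, XBP1, ERN1 and ATF6. Their values were taken from all probe sets that the platform annotation assigned to one of these genes alone, 126 of 259224 such probe sets. They covered 9 of the 10 genes. The 14 probe sets of HSP90B1, the ER paralogue of HSP90, also named the microRNA gene MIR3652, and HSP90B1 was therefore not analysed here.

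The ER folds secreted and membrane proteins with the help of chaperones, lectins and disulfide isomerases. When unfolded proteins accumulate, sensors in the ER membrane start the unfolded protein response. IRE1, the product of ERN1, splices the XBP1 mRNA, and ATF6 travels to the Golgi, where it is cut to release a transcription factor. Both routes act on genes for chaperones and for ER-associated degradation, and PERK, the third sensor, slows translation. NK cells fill their cytotoxic granules through the secretory pathway, so this machinery is in steady use.

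Expression was measured in NK-92MI, an established human NK cell line, on Affymetrix whole-transcript arrays. The 3 Control samples were compared with 3 Mitochondrial transfer samples, which were given 5 µg of mitochondria from WRL-68, the human line used as the hepatocyte donor, and spun at 1500 × g for 15 min. The labels carry the transfer protocol in identical words for the controls, which only their titles set apart, so how the control cells were handled is not given there. Nor do they state whether the 3 samples of a group were separate cultures, and p-values therefore measure only the spread between these samples. The comparison asks whether the recipient cells carried different mRNA levels of ER stress genes, which leaves the activity of the sensors and the splicing of XBP1 unmeasured.

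Values are log2 intensities after robust multi-array averaging (RMA), and the level of a gene is the median of its probe sets on each array. Background was set at 6.15, the 95th percentile of 845 probe sets of 367 olfactory receptor genes, and 44% of 22260 genes had a mean above it. Pearson's r over genes was 0.977 to 0.979 between control arrays, 0.966 between transfer arrays and 0.965 to 0.969 between groups. Of 18 NK cell markers 17 lay above background. No B cell, myeloid, hepatocyte or epithelial marker did (0 of 3, 4, 9 and 8 measured), nor did 6 of 8 T cell markers. The summed level of the NK markers was 171.69 to 173.75 in the control arrays and 166.47 to 168.76 in the transfer arrays. After transfer 16 of 18 markers were lower, 7 of them at an unadjusted p under 0.05 in limma and 0 after adjustment. Of all genes above background, 69.1% were lower by sign and 12.9% were lower at that unadjusted p. The part of the NK marker shift in the values below was not tested. In bulk samples fewer cells of a type and less RNA per cell cannot be told apart.

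The promoters of several of these genes share the ER stress response element (ERSE), which has the letters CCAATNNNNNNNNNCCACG and is bound by NF-Y together with ATF6 or XBP1. The search covered 250 bases before to 50 bases after each RefSeq start (build GRCh38.p14), on both strands. The element was present in 27 of 35116 promoters (0.0769%), which belonged to 25 genes, 5 of them among the 10 genes described here. The shorter ERSE-II, ATTGGNCCACG, was present in 19 promoters (0.0541%), 1 of them that of HERPUD1. Both elements were searched for because they are known from genes of this kind, so these counts are not a test of the group. The sites are shown 5′ to 3′ for those genes of the group that carry either element, with the fixed letters of each element in capitals.
HSPA5 (chr9:125241391-125241409, minus strand): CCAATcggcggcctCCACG
CALR (chr19:12938384-12938402, minus strand, opposite to the gene): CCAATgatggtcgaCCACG
CANX (chr5:179698778-179698796, plus strand): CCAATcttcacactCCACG
XBP1 (chr22:28800603-28800621, minus strand): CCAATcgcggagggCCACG
HSP90B1 (chr12:103930216-103930234, plus strand): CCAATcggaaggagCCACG
HSP90B1 (chr12:103930321-103930339, minus strand, opposite to the gene): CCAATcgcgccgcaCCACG
HERPUD1 (chr16:56932025-56932035, plus strand): ATTGGgCCACG
The first base of the element lay 66 bases before the start of HSPA5, 52 before that of XBP1 and 117 before that of HERPUD1. No match to these letters lay in the windows of PDIA4, DNAJB9, ERN1 and ATF6, which says only that the exact letters are missing there. The 150 bases before the start of HSPA5 (chr9:125241344-125241493, minus strand) show the element in capitals in its setting. Only the match to all fixed letters is in capitals, and near matches were not searched for.
HSPA5 promoter: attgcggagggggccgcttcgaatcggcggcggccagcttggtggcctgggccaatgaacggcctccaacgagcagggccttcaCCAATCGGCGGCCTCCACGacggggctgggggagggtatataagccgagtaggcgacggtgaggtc

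No gene of the group passed the test after mitochondrial transfer. Of the 9 measured genes, 0 had an adjusted p under 0.05 in limma, 0 had an unadjusted p under 0.05 (5.27% of all genes higher and 8.14% lower) and 0 passed the methods' t-test at the methods' threshold. Over the whole array 16 of 22260 genes (0.0719%) were called in limma, and 4.32% passed the methods' t-test as higher and 8.72% as lower. The share called in limma leaves little room for a call among 9 genes, so the intervals are given for each gene. All 9 intervals included no difference and all lay within a 2-fold change in either direction, with bounds from 0.664-fold to 1.57-fold. This holds for the median of all probe sets of a gene, and no intervals were computed for other summaries. PDIA4, for example, was at -0.50 on probe sets above background and at 0.40 on its brightest probe set. The median difference (transfer minus control) was -0.0091 for these genes, against -0.037 for all genes and -0.12 for the 9785 genes above background. Their median absolute difference was 0.12, against 0.20 for all genes and 0.19 for the genes above background.

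**Figure D1:**
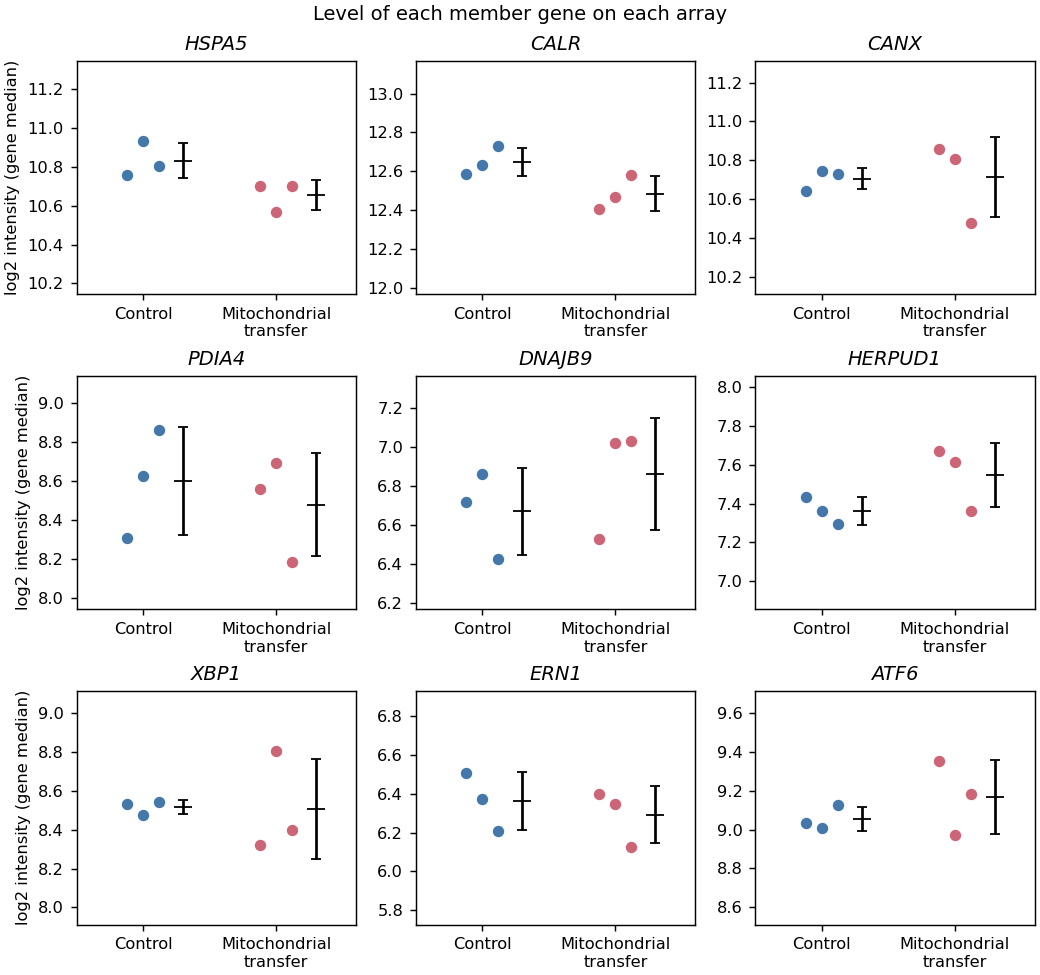
Level of each of the 9 genes (vertical axis, log2 intensity, median of its probe sets) on the 3 Control and 3 Mitochondrial transfer arrays (points, replicates 1 to 3 from left to right), with the mean and SD beside them. Each panel spans the same range of log2 units, and only HSPA5 and CALR have transfer values that all lie below all control values.

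Among the chaperones, HSPA5 encodes BiP, the HSP70 chaperone that binds unfolded proteins and holds the sensors inactive. Its level was 10.76, 10.93 and 10.80 in the control arrays and 10.70, 10.57 and 10.70 in the transfer arrays. The groups did not overlap, and the difference of -0.18 (SE 0.142, n = 3 per group), or 0.885-fold, had an interval that included no change (95% interval 0.706 to 1.11, limma adjusted p = 0.618). CALR, calreticulin, is the soluble lectin chaperone that binds calcium and new glycoproteins. Its level was 12.58, 12.63 and 12.73 in the controls and 12.40, 12.47 and 12.58 after transfer. The lowest control only just exceeded the highest transfer array, and the difference was -0.16 (SE 0.141, 0.893-fold, interval 0.713 to 1.12, limma adjusted p = 0.647).

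HSPA5 and CALR were thus 2 of 9 genes (22.2%) whose transfer values all lay below the controls. The share was 13.3% of all genes but 23.4% of the genes above background, where all 9 lie, so 2 of 9 is close to the background share. Both genes belong to the top decile of genes by mean level, and the median difference of all genes in that decile was -0.13. Set against it, HSPA5 lay only 0.047 and CALR 0.034 further down. The same decile held CANX, PDIA4, XBP1 and ATF6, which lay 0.0075 to 0.24 above its median.

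CANX, calnexin, is the membrane-bound lectin of the same folding cycle as calreticulin. It was at 10.64, 10.74 and 10.73 in the controls and at 10.86, 10.81 and 10.48 after transfer. Transfer replicate 3 lay below all controls and the other transfer arrays above them, for a difference of 0.0085 (SE 0.159, interval -0.36 to 0.37, limma adjusted p = 0.986). PDIA4, a disulfide isomerase of the ER lumen also named ERp72, was at 8.31, 8.63 and 8.86 in the controls and 8.56, 8.69 and 8.18 after transfer. Both groups spread widely and overlapped, with SDs of 0.28 and 0.27 and a difference of -0.12 (SE 0.205, interval -0.59 to 0.35, limma adjusted p = 0.829).

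DNAJB9 (ERdj4) is a J-domain cochaperone of BiP, and HERPUD1 is a membrane protein that helps to assemble the ubiquitin ligase complex of ER-associated degradation. DNAJB9 was at 6.72, 6.86 and 6.42 in the controls and 6.53, 7.02 and 7.03 after transfer. Transfer replicate 1 lay among the controls and the other transfer arrays above them, for a difference of 0.19 (SE 0.199, 1.14-fold, interval 0.833 to 1.57, limma adjusted p = 0.703). HERPUD1 was at 7.43, 7.36 and 7.29 in the controls and 7.67, 7.61 and 7.36 after transfer. Transfer replicate 3 fell within the control range, and the difference was 0.19 (SE 0.151, 1.14-fold, interval 0.894 to 1.45, limma adjusted p = 0.621).

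The sensors and the transcription factor XBP1 showed no separation of the groups. XBP1 was at 8.53, 8.48 and 8.54 in the controls and 8.32, 8.80 and 8.40 after transfer. The control arrays differed by little (SD 0.035) and the transfer arrays by more (SD 0.26), on both sides of them, for a difference of -0.0091 (SE 0.170, limma adjusted p = 0.986), which was 0.061, 0.079 and 0.037 after quantile normalization, cyclic loess and centring. ERN1 was at 6.51, 6.37 and 6.21 in the controls and 6.40, 6.35 and 6.13 after transfer, a difference of -0.071 (SE 0.158, limma adjusted p = 0.876). ATF6 was at 9.03, 9.01 and 9.13 in the controls and 9.35, 8.97 and 9.18 after transfer. Transfer replicate 2 lay below all controls and the other transfer arrays above them, and the difference was 0.11 (SE 0.156, limma adjusted p = 0.785).

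**Figure D2:**
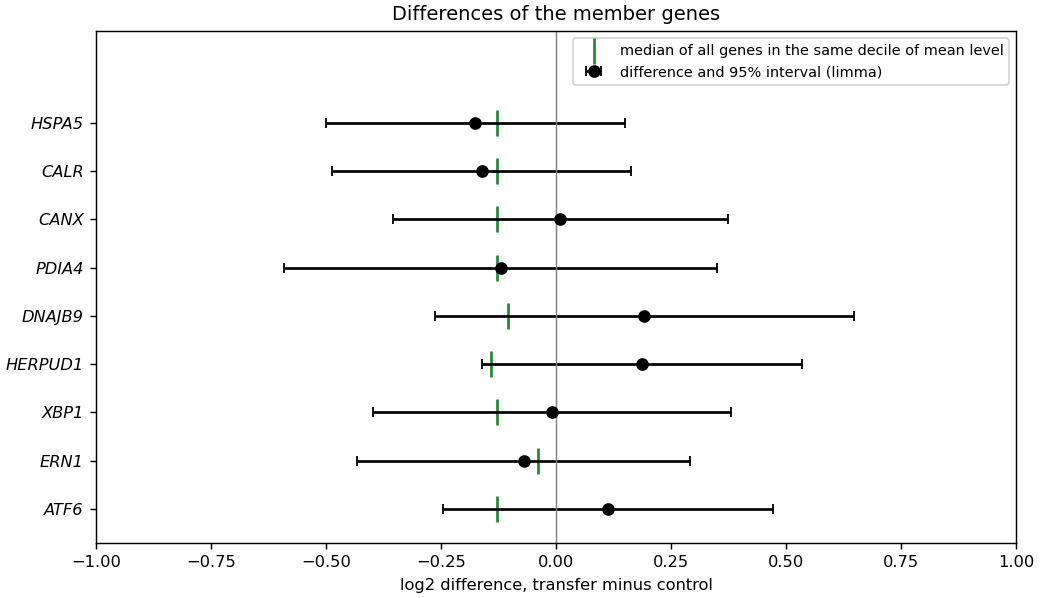
Log2 difference between Mitochondrial transfer and Control for each of the 9 genes (points) with its 95% interval from limma (bars), and the median difference of all genes in the same decile of mean level (vertical ticks). Every interval includes 0 and lies within 1 log2 unit, and all ticks sit to the left of 0.

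The spread within the groups was unequal. The median SD of the 9 genes was 0.074 in the control arrays and 0.19 in the transfer arrays, against 0.19 and 0.23 for all genes. For the genes above background, where all 9 lie, it was 0.14 and 0.18. Directions close to 0 depended on single arrays. CANX was at -0.022, -0.063 and -0.039 without Control replicate 1, transfer replicate 1 and transfer replicate 2. XBP1 was at 0.0043, 0.083 and 0.046 without Control replicate 3, transfer replicate 1 and transfer replicate 3. PDIA4 was at 0.011 and 0.027 without Control replicate 3 and transfer replicate 3, and ERN1 at 0.0014 and 0.012 without Control replicate 1 and transfer replicate 3. HSPA5, CALR, DNAJB9, HERPUD1 and ATF6 kept their direction without each of the 6 arrays, though not their size. ATF6 was at 0.021 without transfer replicate 1 and at 0.21 without transfer replicate 2. DNAJB9 was at 0.070, 0.11 and 0.11 without Control replicate 3, transfer replicate 2 and transfer replicate 3, and at 0.29 and 0.36 without Control replicate 2 and transfer replicate 1.

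The individual probe sets, which mostly read single exons, gave the same count as the genes. In limma 0 of 126 had an adjusted p under 0.05, against 180 of 259224 single-gene probe sets (0.0694%). At an unadjusted p under 0.05 there were 2 higher and 1 lower, together 2.38%, against 4.58% higher and 5.46% lower over all. The groups did not overlap in 21 probe sets (16.7%), 9 of them higher and 12 lower after transfer, where the share over all was 18.0%. Absolute differences over 1 log2 unit occurred in 4 probe sets (3.17%), against 10.3% of all. Of the 126 probe sets 107 had a mean above background, against 135228 of all 259224. Among those above background, 1 of the 107 differed by over 1 log2 unit, against 4526 of the 135228.

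The probe sets of CALR were the most even in sign, since 11 of 12 had a negative difference, with a range from -0.35 to 0.11. Those of HSPA5 had 8 of 10 negative, from -0.28 to 0.092. XBP1 had 8 of 12 negative and PDIA4 10 of 13, while HERPUD1 and DNAJB9 were split evenly, with 5 of 10 and 3 of 6. CANX had 15 of 24 positive and ATF6 10 of 18. Probe sets of one gene read the same transcripts and are not independent of each other.

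**Figure D3:**
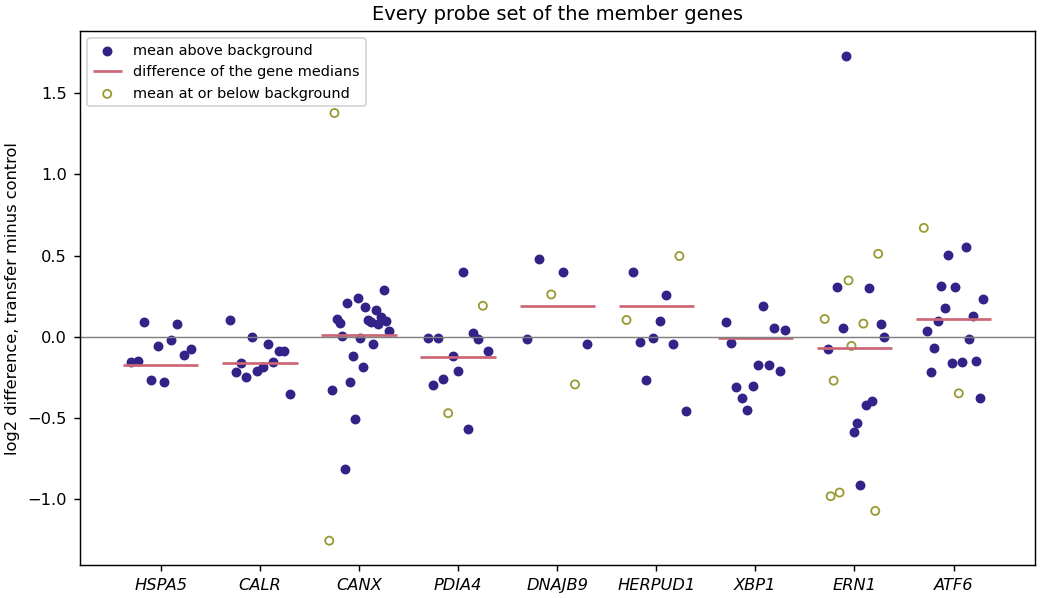
Log2 difference between Mitochondrial transfer and Control (vertical axis) of all 126 probe sets of the 9 genes, with the difference of the gene medians as a horizontal line. Filled points have a mean above background and open points do not. The points of HSPA5 and CALR lie close together and mostly below 0, and 1 filled point of ERN1 lies at 1.73.

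The brightest probe set of a gene did not always follow its median. For PDIA4 it read 10.52, 10.71 and 10.76 in the controls and 11.08, 11.03 and 11.07 after transfer. These groups did not overlap, at a difference of 0.40 (SE 0.184, limma adjusted p = 0.533), while the median over all 13 probe sets of PDIA4 had the opposite sign. For CANX the brightest probe set read 13.43, 13.49 and 13.57 in the controls and 13.16, 13.23 and 13.27 after transfer. All transfer values were lower, at a difference of -0.28 (SE 0.180, limma adjusted p = 0.634). That of CALR also had all transfer values below the controls, at -0.21 (limma adjusted p = 0.719). The brightest probe sets of HSPA5, DNAJB9, HERPUD1, XBP1, ERN1 and ATF6 had overlapping groups and differences of -0.020, -0.043, -0.0048, -0.31, 0.056 and 0.10.

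One probe set of ERN1, number 16847780, stood apart and was chosen after its values were seen. It read 7.03, 7.02 and 6.54 in the controls and 8.41, 8.69 and 8.70 after transfer. All transfer values were higher, by 1.73 (SE 0.231, 3.32-fold, interval 2.25 to 4.91, unadjusted p = 0.00027 and adjusted p = 0.123 in limma). The other 20 ERN1 probe sets had a median difference of -0.065, with 8 positive and 12 negative and none above 0.51, so the gene median did not carry it. Relative to the median of the other ERN1 probe sets it was higher by 1.83 (limma adjusted p = 0.179).

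Over all 126 probe sets, 0 differed from the median of their own gene after adjustment in limma, against 63 of 254364 (0.0248%). The call on this ERN1 probe set depended on the fit, since it passed when only probe sets above background were fitted and with a variance trend and robust fit of all of them. The first setting called 0.533% of the 135228 probe sets above background, and the second 0.569% of all 259224 single-gene probe sets. At the gene level ERN1 did not pass under either setting. Of the 2 other probe sets with an unadjusted p under 0.05, one of ATF6 (number 16673002) was at 9.27, 9.59 and 9.32 in the controls and 10.01, 9.86 and 9.98 after transfer, and one of ERN1 had a mean below background.

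**Figure D4:**
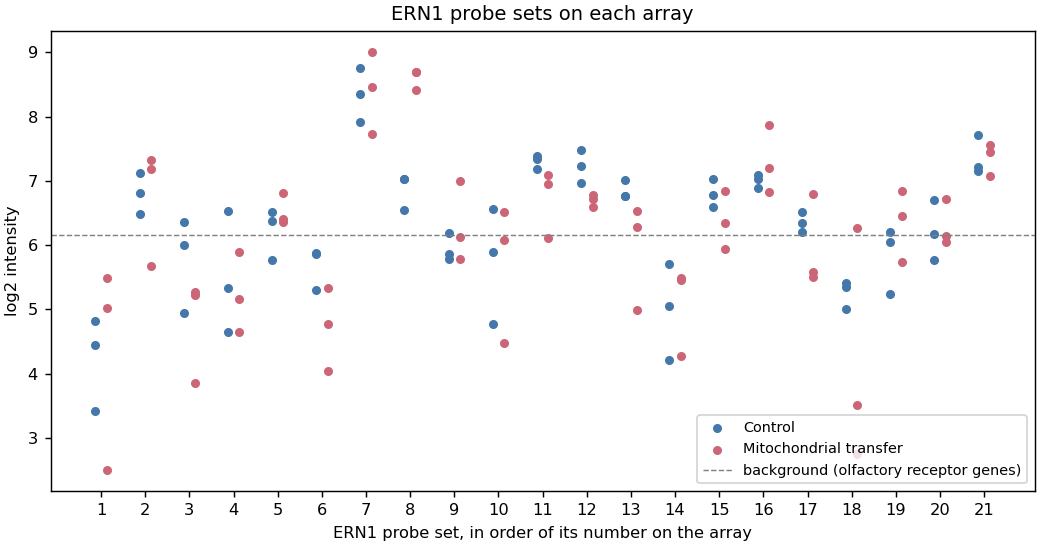
Log2 intensity of each of the 21 ERN1 probe sets, in order of their numbers on the array, on the 3 Control and 3 Mitochondrial transfer arrays (points), with background as a dashed line. Only the 8th probe set has transfer values well above all control values, and 9 of the 21 have a mean below background.

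Other genes of the ER, together with heat shock chaperones outside it, were examined as 7 lists, which held 165 genes, 158 of them measured. None was called in limma at an adjusted p under 0.05 (background 0.0719%), and at an unadjusted p under 0.05 there were 5 higher and 22 lower. By sign alone, 58 were higher and 100 lower after transfer. These shares stood close to those of genes of like brightness. Of the 134 list genes above background, 67.2% were lower by sign, against 69.1% of all genes above background. At an unadjusted p under 0.05, 2.24% of them were higher and 13.4% lower, against 2.87% and 12.9% of all genes above background.

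Among 22 other ER chaperones and cochaperones, 9 were higher and 13 lower, with a median difference of -0.17. UGGT2, a paralogue of the glucosyltransferase that returns misfolded glycoproteins to the calnexin cycle, read 5.98, 6.25 and 5.65 in the controls and 6.75, 6.84 and 7.02 after transfer. The groups did not overlap, at a difference of 0.91 (SE 0.188, limma adjusted p = 0.178). SDF2, a partner of ER J-domain proteins, had a difference of -0.70 (limma adjusted p = 0.241), and of -0.44 on its brightest probe set. Among 20 disulfide isomerases and ER oxidases, 9 were higher and 11 lower, with a median of -0.073. ERO1A, the oxidase that recharges protein disulfide isomerase, read 9.83, 9.65 and 9.57 in the controls and 10.35, 10.48 and 10.54 after transfer. All transfer values were higher, by 0.77 (SE 0.149, limma adjusted p = 0.165), whereas the brightest ERO1A probe set gave -0.063. ERP27, a redox-inactive member of the same family with a mean below background, had a difference of -0.80 (limma adjusted p = 0.270), and of -0.41 on its brightest probe set.

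For ER-associated degradation, 9 of 28 measured genes were higher and 19 lower, with a median of -0.083. HERPUD2, the paralogue of HERPUD1, had a difference of -0.42 (limma adjusted p = 0.291), which was 0.13 on its brightest probe set, and AUP1, a partner of degradation ligases, -0.49 (limma adjusted p = 0.354), which was -0.24 on probe sets above background. Among 19 other sensors, proteases and partners of the sensors, 8 were higher and 11 lower, with a median of -0.061. YY1, a transcription factor that acts with ATF6 on the HSPA5 promoter, read 8.30, 8.18 and 8.31 in the controls and 7.66, 7.62 and 7.64 after transfer. The groups were tight and well apart, at -0.62 (SE 0.137, limma adjusted p = 0.192), with -0.29 on the brightest probe set. MBTPS1, the site-1 protease that cuts ATF6 in the Golgi, had a difference of -0.49 (limma adjusted p = 0.306), which shrank to -0.20 on its brightest probe set, -0.19 on the mean and -0.18 on the probe sets above background.

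In the PERK branch and the integrated stress response, 8 of 20 genes were higher and 12 lower, with a median of -0.11. DDIT4, an inhibitor of mTORC1 signalling that several stresses induce, read 9.59, 8.35 and 8.84 in the controls and 10.60, 10.32 and 10.39 after transfer. The controls spread over more than 1 log2 unit and still lay below all transfer arrays, at a difference of 1.51 (SE 0.291, 2.85-fold, limma adjusted p = 0.165). ATF5, a transcription factor of the same response, had a difference of -0.54 (limma adjusted p = 0.235), and of -0.30 on the mean of its probe sets. Among 36 genes of translocation, glycosylation and export, 11 were higher and 25 lower, with a median of -0.13. KDELR1, the receptor that returns ER chaperones such as BiP from the Golgi, read 8.88, 8.77 and 8.67 in the controls and 8.26, 7.77 and 8.001 after transfer. All transfer values were lower, by 0.77 on the log2 scale (a difference of -0.77, SE 0.171, limma adjusted p = 0.194), with -0.41 on the brightest probe set and -0.47 on the mean. SEC13, a coat protein of ER export vesicles, had a difference of -0.53 (limma adjusted p = 0.333) and 0.58 on its brightest probe set.

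Outside the ER, 4 of 13 measured heat shock chaperones of the cytosol and mitochondria were higher and 9 lower, with a median of -0.076. HSPH1, a nucleotide exchange factor for HSP70, had a difference of -0.43 (limma adjusted p = 0.311), and TRAP1, the mitochondrial HSP90, of -0.31 (limma adjusted p = 0.386), or -0.58 on its brightest probe set. The limits of these lists lie in the summary and the fit. DDIT4 passed in limma on the brightest probe set, on the mean of the probe sets, on those above background, among genes above background only and with a trend and robust fit. ERO1A, UGGT2, YY1 and KDELR1 passed under the last 2 of these settings, and ATF5 among genes above background only. UGGT2, ERO1A and DDIT4 were then higher, and YY1, KDELR1 and ATF5 lower.

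**Figure D5:**
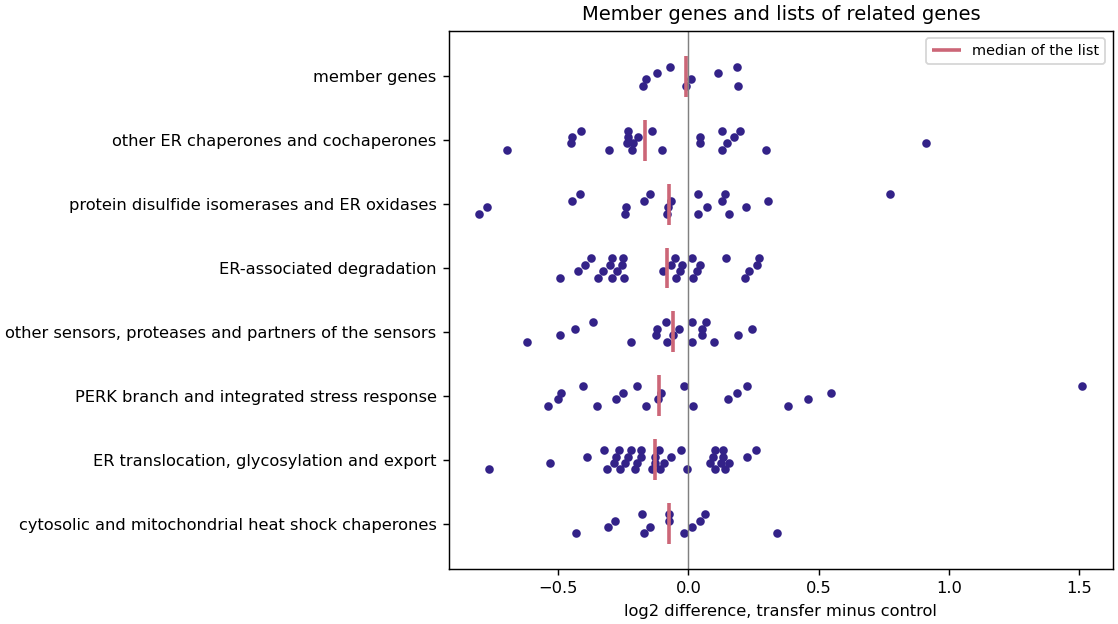
Log2 difference between Mitochondrial transfer and Control of each measured gene (points) in the group of 9 genes and in the 7 lists of related genes, with the median of each list as a vertical line. All medians lie between -0.17 and 0, and DDIT4 in the PERK list at 1.51 is the point farthest to the right.

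Genes with an ERSE had differences of both signs. Of the 25 genes with the element, a list made after the values were seen, 19 were measured, 6 of them higher and 13 lower after transfer, with a median of -0.11. None was called in limma, and 3 had an unadjusted p under 0.05 (CRELD2 at -0.41, SYNPO at -0.61 and TRIM5 at 0.52), all with means below background. Over all genes 5.27% were higher and 8.14% lower at that level. The 4 measured genes of the group with the element, HSPA5, CALR, CANX and XBP1, had a median of -0.086, and the 15 others had -0.11.

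The genes whose pattern over the 6 arrays was most like that of HSPA5 were PSME3, CDT1, TCF3, POLR3E and HCFC1. Likeness was the root mean square distance of the centred values, taken over 9784 other genes above background. The distances were 0.016, 0.030, 0.031, 0.033 and 0.033, where the median over all these genes was 0.20. The 5 genes had differences of -0.19, -0.14, -0.19, -0.15 and -0.20. Genes chosen by this distance must have differences near that of HSPA5 (-0.18), so these values are not a separate result.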

How the data were processed

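Log2 intensities of 6 arrays, deposited by the authors, were used as given. Per the labels they were made with RMA in Affymetrix Power Tools, whose versions, genome build and probe filter are not given in the sources used here. RMA corrects background, normalizes by quantiles and summarizes each probe set. This forces like distributions on all arrays, so an equal shift of all genes would not be seen. Median differences still varied with brightness, with 0.13 in the lowest and -0.13 in the highest decile of mean level. Of 352859 probe sets, 13116 named several genes and 80519 none, and were left out. Symbols were updated for 1726 genes (20529 were current and 65 unmatched). A gene took the median of its probe sets (a median of 10). Groups came from the sample titles. Transfer was compared with control by lmFit and eBayes in limma 3.58.1 (R 4.3.3), for 22260 genes, for every probe set, and for probe sets minus their gene's median (genes with at least 3), with Benjamini-Hochberg adjustment over all features and a threshold of 0.05. The scripts were tested on simulated data. Precision is limited by having 3 arrays per group. All members are named, with the brightest probe set of each. In each list the genes past the threshold are named, or otherwise the 2 with the smallest p. For the PERK list all genes with an unadjusted p under 0.05 are named. The members and lists were chosen with earlier results of these data known. Replicate numbers were not taken as pairs of arrays. Other summaries, normalizations, filters, variance models and tests were tried.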

Additional observations from a re-analysis of the deposited data

How the results depend on the processing

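With 3 arrays per group only large or very even differences could pass, and the count over all genes (14 higher, 2 lower) moved with the processing, while the 9 ER stress genes gave 0 calls under all 18 alternatives. All genes gave 388 higher and 52 lower on the brightest probe set, and 53 and 18 on the mean of the probe sets. On the median of probe sets above background, 155 were higher and 39 lower of 17422 genes. All genes gave 82 and 197 among features above background only (9785 genes), and 96 and 233 with a trend and robust fit. The lower calls were 0 after cyclic loess and 1 after centring. Leaving out each array gave 1 to 9 higher and 0 to 1 lower. The methods' t-test gave 962 and 1940 at the methods' threshold, and 0 and 0 after Benjamini-Hochberg adjustment. The 158 list genes gave 3 higher on the brightest probe set (1.74% of all genes were), 1 on the mean (0.238%) and 3 on the probe sets above background (0.89%). Among features above background, where 134 of them lie, they gave 3 higher and 3 lower (0.838% and 2.01% of all those genes). With a trend and robust fit they gave 3 and 2 (0.431% and 1.05%), and at the methods' threshold 9 and 27 (4.32% and 8.72%). Of the 126 member probe sets, 1 was higher among features above background (0.473% of all those probe sets were) and 1 with a trend and robust fit (0.439%), and 5 were higher and 5 lower at the methods' threshold (4.45% and 6.21% of all). Relative to their gene, 1 was higher among features above background (0.192%), and 5 were higher and 3 lower at the methods' threshold (4.26% and 3.19%). On the brightest probe set, HSPA5 moved to -0.020, CANX to -0.28, PDIA4 to 0.40, HERPUD1 to -0.0048 and XBP1 to -0.31. HERPUD1 was at 0.055 on the mean, PDIA4 at -0.50 on probe sets above background and CALR at -0.050 after quantile normalization. Quantile normalization raised all 9 genes, among them HSPA5 to -0.12 and ATF6 to 0.18, and the median over all genes from -0.037 to 0.013. The cause of these changes was not tested. In the filtered fit both the number of features and the unadjusted p-values changed (ERO1A from 0.000758 to 0.000116). Over all settings, the sign changed under 6 of 18 alternatives for CANX, 7 for XBP1, 3 for PDIA4, 3 for ERN1, 1 for DNAJB9 and 1 for HERPUD1, and under none for HSPA5, CALR and ATF6.

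Same-numbered arrays of the groups had correlations of deviations of 0.030, 0.0020 and -0.010, so the numbers were not taken as pairs. With a replicate block, all genes gave 1 higher and 0 lower, and the block changed no call on the 9 genes. Relative to the median of a gene's other probe sets, a reference chosen after seeing the data, 65 of 254364 probe sets were called and none of them was a member.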
